A study of Homo sapiens with 10 samples.

Results

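The clustered histone genes are the human genes that encode the bulk of the histone proteins, and they were examined here for the signal of ZEB1, a zinc finger transcription factor that represses epithelial genes and promotes the epithelial-mesenchymal transition. They were taken as the RefSeq protein-coding genes of GRCh38 on chromosomes 1 and 6 whose symbols begin with H2AC, H2BC, H3C or H4C followed by a number, plus H1-1 to H1-6. The rule gave 68 of 20033 protein-coding genes, made up of 6 H1, 17 H2A, 18 H2B, 13 H3 and 14 H4 genes. A ZEB1 site was linked to one of them when its midpoint lay in the gene or within 2 kb of either end, which gave 51 of the 52981 consensus sites. The rule used no measured signal beyond the presence of a site.

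ZEB1 occupancy was mapped by CUT&RUN, in which an antibody tethers a nuclease that releases the DNA around a bound protein for sequencing. The cells were a breast cancer line that the labels name MDA and describe as negative for ER, PR and HER2. Each of 4 conditions had 2 ZEB1 libraries: untreated cells (labelled MDA_Parental) and cells given eribulin at 300 nM for 24, 48 or 72 h (labelled MDA_ERI). Eribulin is a breast cancer drug that blocks microtubule growth. All groups share the line and the antibody, all exposure times share 1 untreated control of unstated time, and the effect of the drug cannot be told apart from that of the days in culture. A further 2 IgG libraries of untreated cells were not analysed here. The labels name Tn5 as well, although it is not part of CUT&RUN, and occupancy data hold no RNA markers with which to check the identity of the cells.

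Clustered histone genes are short and nearly all lack introns, and they lie side by side in clusters, often as H2A and H2B genes that share 1 promoter and are read in opposite directions. They are transcribed mainly in S phase, when new DNA must be packaged, and their mRNAs end in a stem-loop and not in a poly(A) tail. H2A, H2B, H3 and H4 proteins form the nucleosome core, and the linker histone H1 binds where DNA enters and leaves it. Their promoters are known for TATA boxes, for CCAAT boxes bound by NF-Y, and, in H2B promoters, for an octamer bound by OCT1, whereas ZEB1 is known to bind the E-box CACCTG.

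The stretches around 5 gene starts are shown because the results turn on them. H2BC5 held the only CACCTG E-box found in the searched promoter window of a gene with a site. H2BC11 had the site with the most counts, H2AC14 had the largest change at 72 h, and H4C12 had the largest at 48 h. H4C14 is 1 of a pair with identical promoters. Each runs 5′ to 3′ along the strand of its gene from 250 bases before the RefSeq start to 20 bases after it (RefSeq, GRCh38.p14). They lie at chr6:26157871-26158140 on the plus strand, chr6:27132776-27133045, chr6:27814758-27815027 and chr6:27831541-27831810 on the minus strand, and chr1:149832407-149832676 on the plus strand. Capitals mark the E-box CACCTG, the CCAAT box, the TATA box TATAAA and the octamer ATTTGCAT on either strand, so that CAGGTG is an E-box read on the other strand, and in H2BC11 the first 2 TATA matches overlap.
H2BC5: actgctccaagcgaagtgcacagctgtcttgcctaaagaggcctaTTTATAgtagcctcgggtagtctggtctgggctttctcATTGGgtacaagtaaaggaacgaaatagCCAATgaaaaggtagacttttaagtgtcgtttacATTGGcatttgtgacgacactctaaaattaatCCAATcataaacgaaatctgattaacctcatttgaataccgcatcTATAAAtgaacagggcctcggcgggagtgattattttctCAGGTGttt
H2BC11: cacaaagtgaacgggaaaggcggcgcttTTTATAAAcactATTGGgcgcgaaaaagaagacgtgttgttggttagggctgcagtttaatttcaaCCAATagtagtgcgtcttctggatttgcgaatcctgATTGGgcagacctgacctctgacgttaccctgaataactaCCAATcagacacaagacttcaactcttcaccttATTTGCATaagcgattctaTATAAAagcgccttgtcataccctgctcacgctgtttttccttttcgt
H2AC14: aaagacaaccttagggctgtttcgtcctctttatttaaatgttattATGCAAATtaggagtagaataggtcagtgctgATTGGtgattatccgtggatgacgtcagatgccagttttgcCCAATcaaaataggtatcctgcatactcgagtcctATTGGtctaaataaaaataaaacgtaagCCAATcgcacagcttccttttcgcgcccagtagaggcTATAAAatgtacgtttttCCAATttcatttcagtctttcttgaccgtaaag
H4C12: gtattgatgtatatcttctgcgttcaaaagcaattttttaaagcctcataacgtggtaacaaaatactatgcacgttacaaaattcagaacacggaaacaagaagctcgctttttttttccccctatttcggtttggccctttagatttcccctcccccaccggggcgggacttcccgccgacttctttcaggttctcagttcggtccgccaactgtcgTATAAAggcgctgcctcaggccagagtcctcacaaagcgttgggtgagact
H4C14: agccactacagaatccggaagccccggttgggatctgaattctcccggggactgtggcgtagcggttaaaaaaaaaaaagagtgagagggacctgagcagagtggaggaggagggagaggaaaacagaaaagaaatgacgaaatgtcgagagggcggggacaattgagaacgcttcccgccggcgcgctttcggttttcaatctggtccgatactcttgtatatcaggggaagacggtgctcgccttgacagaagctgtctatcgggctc
The H2BC5 E-box began at base 12 of the gene, at chr6:26158132-26158137, inside its ZEB1 site. The H4C14 stretch held none of the 4 motifs.

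Of the 68 genes, 63 matched the RefSeq promoter table, and each window searched held 250 bases before the start and 50 after it. Of the 43 genes with a site, 39 had a window. The sequence of the sites outside these windows was not searched. A CACCTG E-box was in 2 of the 63 windows (3.17%), those of H2BC5 and H2BC10, against 20.6% of all 27305 windows in the table. The H2BC10 E-box began 237 bases before the start, and H2BC10 had no ZEB1 site. CCAAT boxes were far commoner in the histone windows, in 54 of 63 (85.7%) against 35.7% of all windows. They were in all windows of the H1, H2A, H2B and H3 genes and in 3 of 12 H4 windows. TATAAA was in 42 of 63 histone windows (66.7%), against 12% of all. The octamer was in 25 of 63 (39.7%), against 1.8% of all, and these were 11 of 16 H2A and 14 of 18 H2B windows. Histone genes with and without a ZEB1 site were alike in these shares for the octamer (16 of 39 against 9 of 24), while TATAAA was in 30 of 39 windows of genes with a site and in 12 of 24 of genes without one, a difference that was not tested.

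A ZEB1 site lay at 43 of the 68 histone genes (63.2%), against 71.7% of all protein-coding genes. Genes closer than 200 kb to each other were grouped into 6 clusters. All 11 genes of the chromosome 1 cluster at chr1:149782689-149887965 had a site, and its 15 sites lay from H2BC18 to H2AC21. The largest cluster, chr6:26017032-26285534, held 32 genes, of which 16 had a site, and 23 sites. In the cluster at chr6:27132316-27147562, 4 of 5 genes had a site, with H4C9 the exception, and in that at chr6:27807479-27893891 12 of 16 had one. The isolated pairs H2AC25 and H2BC26 on chromosome 1 and H2AC1 and H2BC1 on chromosome 6 had no site.

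The genes without a site were not scattered evenly. Between H4C4 and H2BC10, at chr6:26188710-26273412, 15 histone genes in 84.7 kb held 1 consensus site. That site, near H4C5, had a peak in untreated cells only and 4.93, 5.78, 4.2 and 6.26 CPM in untreated cells and at 24, 48 and 72 h. The run from H2AC16 to H4C13 held 4 more genes without a site, among them H1-5. By family, a site lay at 2 of 6 H1, 12 of 17 H2A, 12 of 18 H2B, 8 of 13 H3 and 9 of 14 H4 genes. The plot by gene shows these gaps.

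**Figure D1:**
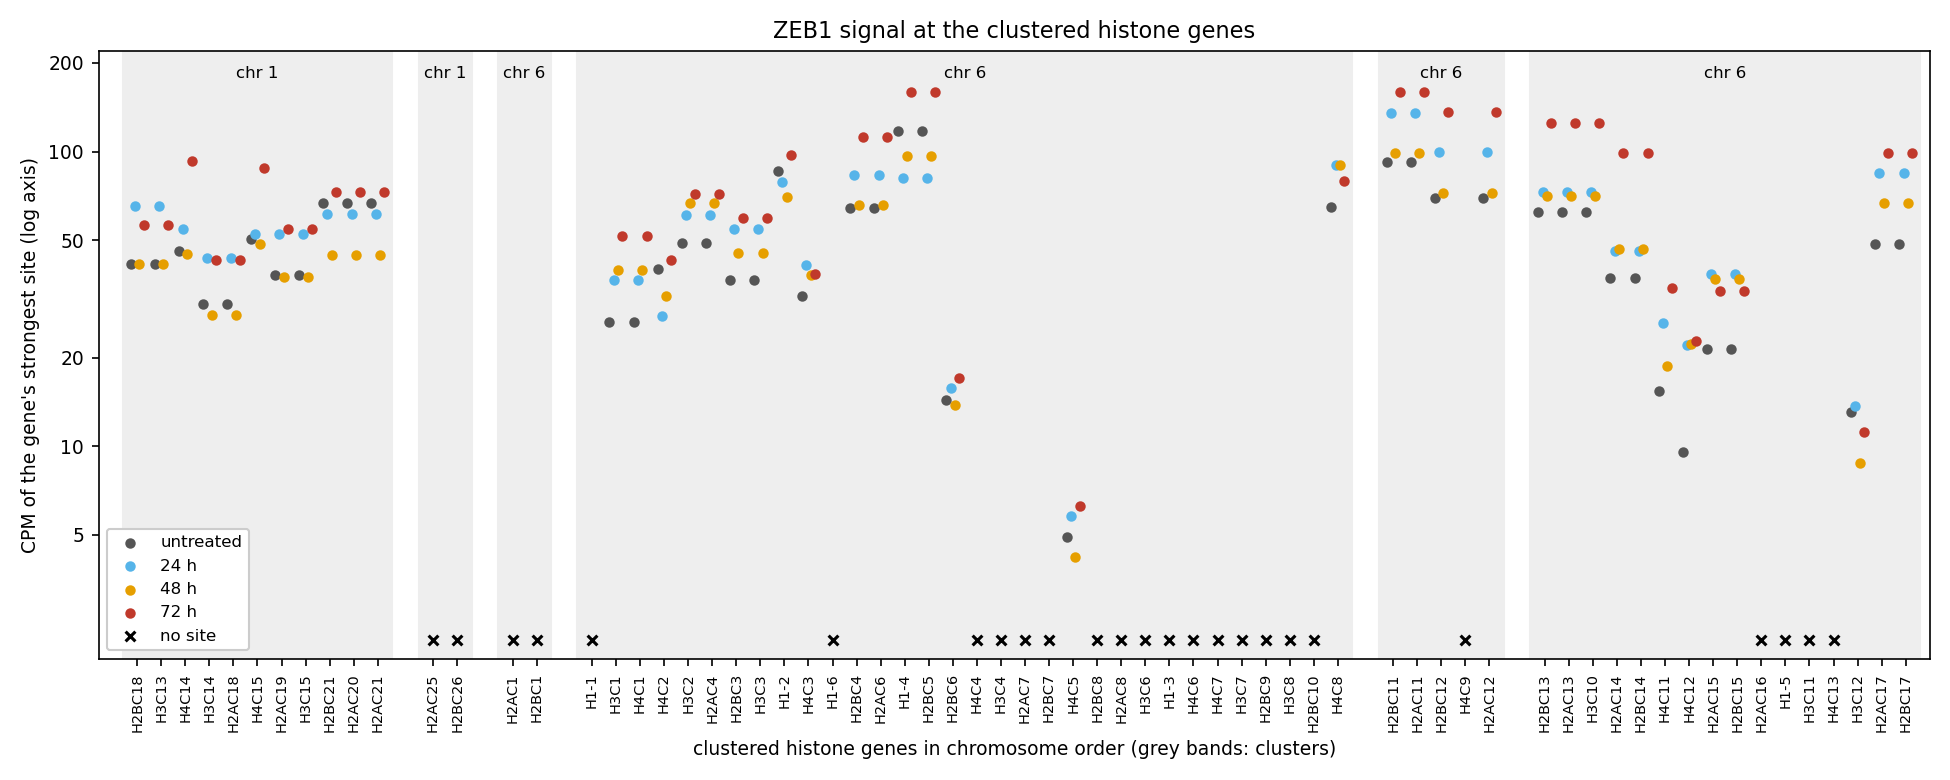
ZEB1 signal at the clustered histone genes. Each point gives, on a log axis, the CPM of the gene's strongest linked site (pooled counts of 2 libraries per condition, TMM-scaled), for untreated cells and 24, 48 and 72 h of eribulin, and a cross marks a gene with no site. Genes run in chromosome order in 6 grey bands, one per cluster. A site shared by neighbouring genes is drawn at each, and the gap between H2BC6 and H4C8 holds 15 genes of which only H4C5 has a site.

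Library totals over the consensus sites ran from 1130706 to 3561455 counts. The 2 libraries of a condition agreed within sampling noise: among sites of at least 20 counts, chi-square divided by its degrees of freedom was 0.830 to 0.951 over all sites and 0.908 to 1.01 over the histone sites. They were therefore counted as 1 sample per condition. The p-values below compare libraries and not cultures, and all intervals (95%) cover counting error only. Levels are CPM (counts per 1e6 counts) after TMM scaling, and log2 fold changes come from edgeR's quasi-likelihood fit of all 46436 sites that passed its filter on low counts. Of the 51 histone sites 46 were tested, and the other 5, near H4C14, H2AC18, H3C1, H3C2 and H4C5, were 14 to 110 bases wide and had too few counts.

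TMM sets the typical site to no change, so every change below is relative to the typical site. Scaling by the background floor of the peak caller moved the median of all tested sites to -0.91, -1.42 and -1.50 for 24, 48 and 72 h against untreated cells, and to -0.58 for 72 h against 24 h. On that scale the histone medians were also below 0, at -0.51, -1.35, -0.92 and -0.34, and so lay 0.40, 0.07, 0.58 and 0.24 above those of all sites. A scaling moves all sites together, so this distance cannot tell one scaling from another. Total-count scaling put the median of all sites at 0.11 at 24 h and at -0.13 at 72 h against 24 h, and scaling on the sites with the lowest counts put it at -0.12 at 24 h.

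ZEB1 signal over the histone sites, relative to the typical site, was highest after 72 h, above untreated cells at 24 h and close to untreated cells at 48 h. The summed signal of the 51 sites was 1540 and 1568 CPM in the libraries of untreated cells, 1927 and 1956 CPM at 24 h, 1682 and 1624 CPM at 48 h, and 2439 and 2403 CPM at 72 h. No treated library lay below an untreated one, and the 72 h libraries stood apart from all others. The log2 ratio to untreated cells was 0.32 (0.28 to 0.36) at 24 h, 0.09 (0.04 to 0.14) at 48 h and 0.64 (0.59 to 0.69) at 72 h, and 72 h exceeded 24 h by 0.32 (0.27 to 0.37). On the background-floor scale the same ratios were -0.61, -1.33, -0.86 and -0.25. As a share of all site counts, histone sites took 0.150% in untreated cells, and 0.20%, 0.159% and 0.232% after 24, 48 and 72 h of eribulin. A share of all counts is in effect a scaling by total counts.

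**Figure D2:**
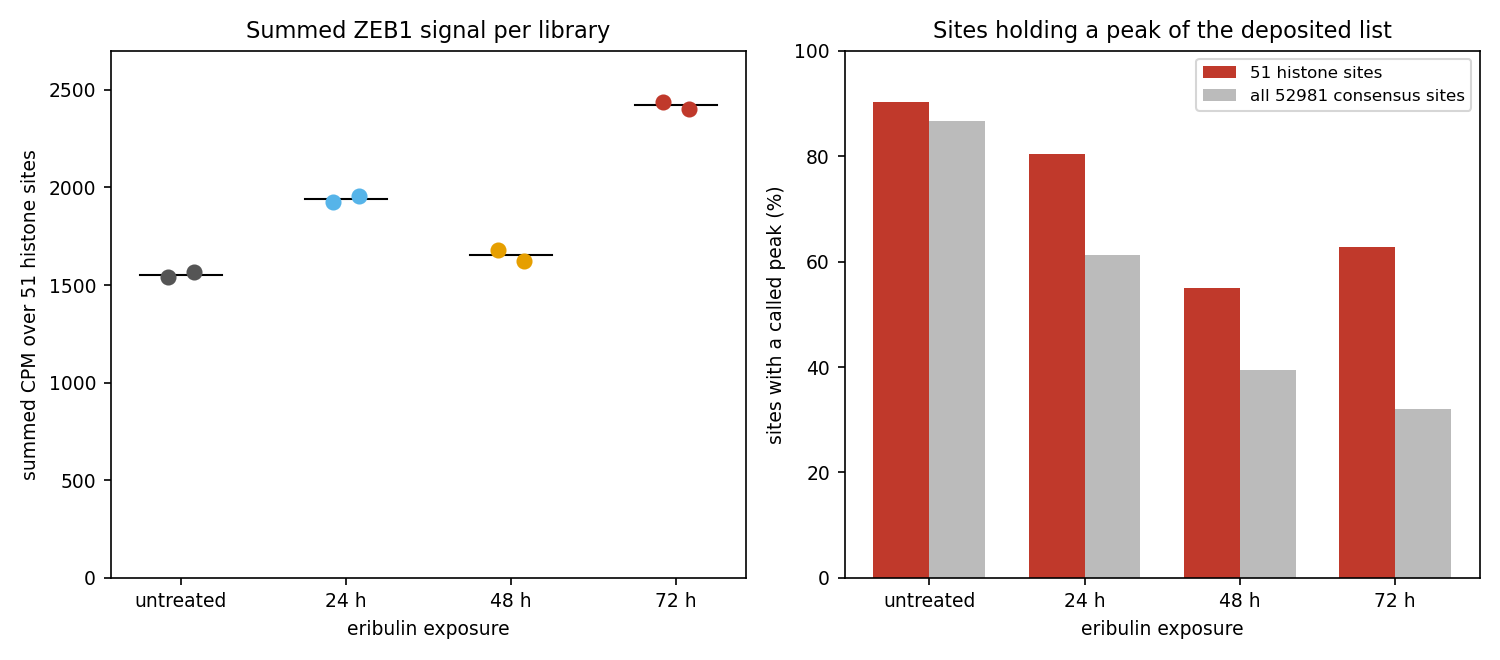
Left, TMM-scaled CPM summed over the 51 histone sites in each library (points), from untreated cells to 72 h of eribulin. A line marks the value from the pooled counts of the 2 libraries of a condition. The 72 h libraries, at 2439 and 2403 CPM, lie above all others (on the background-floor scale every exposure lies below untreated cells). Right, the percentage of sites that hold a peak of the authors' deposited list for each condition, for the 51 histone sites and all 52981 consensus sites; the histone share is the larger in every condition.

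Counts of single sites went the same way. After 24 h, 26 of the 46 tested histone sites rose relative to the typical site (adjusted p under 0.05) and 3 fell, against 28.0% of all tested sites higher and 26.8% lower. At 48 h, 7 rose (15.2%), near the 16.8% of all tested sites, and 4 fell (8.70%), against 16.9% of all. At 72 h, 27 rose and 1 fell, against 18.9% and 17.0% of all tested sites. Between 72 h and 24 h, 13 rose and 3 fell, against 19.4% and 16.4%. The median log2 fold change of the histone sites was 0.42, 0.07, 0.58 and 0.23 in these comparisons, against 0.02, -0.01, 0.00 and -0.01 over all tested sites.

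Most of the changes were below 2-fold. With at least 2-fold required, 4 histone sites rose and 1 fell at 24 h, against 14.8% and 13.5% of all tested sites. At 48 h 1 rose (10.5% of all) and none fell (7.55%), and at 72 h 11 rose and 1 fell (12.2% and 8.55%). Between 72 h and 24 h 3 rose (12.1%) and none fell (9.26%). On the background-floor scale 1 histone site was higher and 31 lower at 24 h, against 6.07% and 65.0% of all tested sites, and 0 were higher and 45 lower at 48 h, against 3.7% and 83.5%. At 72 h 0 were higher and 36 lower, against 2.39% and 82.9%, and between 72 h and 24 h 4 were higher and 21 lower, against 7.63% and 43.4%. On that scale 67.4% of the histone sites were thus lower at 24 h and 78.3% at 72 h, near the shares over all sites. At 48 h 97.8% were lower, above the 83.5% over all sites.

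How many sites were called also depended on the error assumed. DESeq2's Wald test with Benjamini-Hochberg adjustment called 13 histone sites higher and 2 lower at 24 h, against 13.7% and 14.2% of all tested sites, and 2 higher and 1 lower at 48 h, against 8.63% and 5.62%. At 72 h it called 17 higher and 0 lower, against 9.76% and 6.59%, and between 72 h and 24 h 9 higher and 1 lower, against 11% and 5.7%. With a coefficient of variation of 0.2 assumed between cultures, the calls left were the H1-2 gene site at 24 h and the H2AC14 site at 72 h, both higher. That is 2.17% of the histone sites at each of these times, below the 8.67% and 6.31% of all tested sites still called higher, so the excess of higher calls at histone sites was not present under that assumption. No histone site was called higher at 48 h or between 72 h and 24 h, against 5.87% and 3.51% of all, and none was called lower in any comparison, against 7.4%, 2.22%, 2.43% and 1.02% of all for 24, 48 and 72 h and for 72 h against 24 h.

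**Figure D3:**
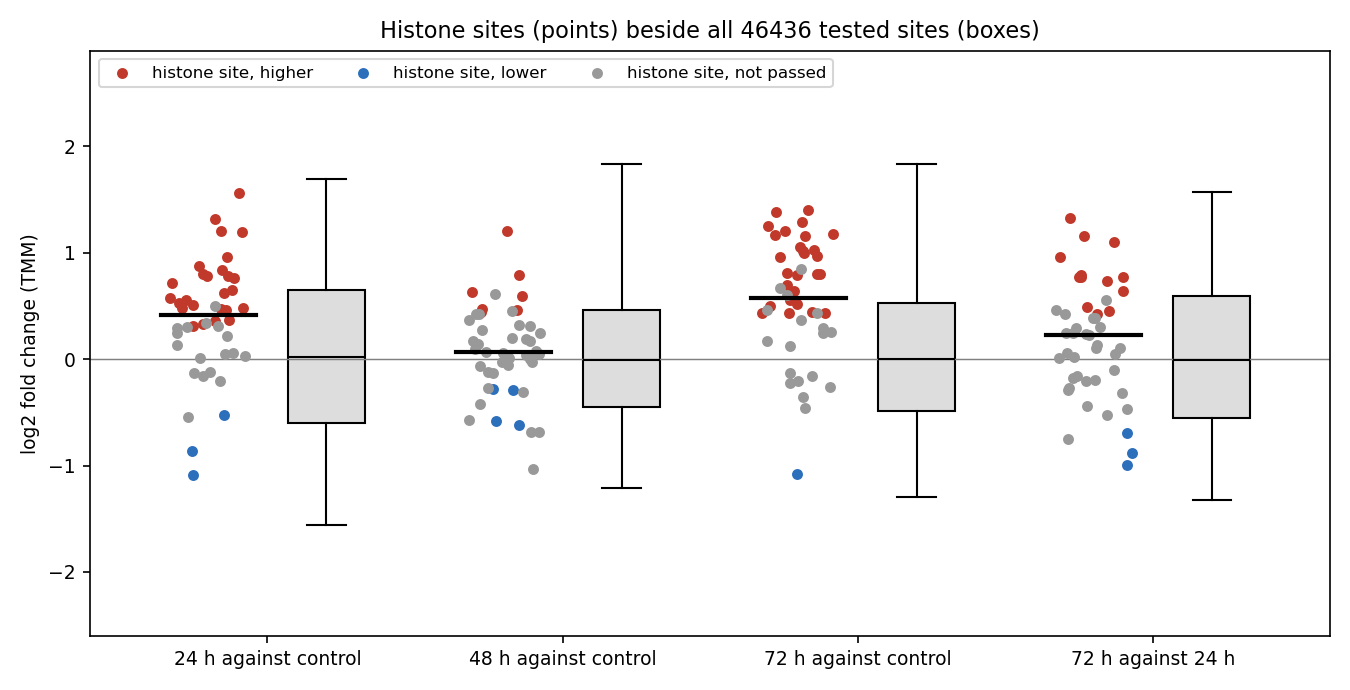
Log2 fold change (TMM scale) of each of the 46 tested histone sites (points, coloured by call at adjusted p under 0.05, thick line at their median) beside all 46436 tested sites (box from the 25th to the 75th percentile with the median inside, whiskers to the 5th and 95th), in the 4 comparisons. Histone medians are 0.42, 0.07, 0.58 and 0.23, with the boxes centred near 0; on the background-floor scale both sets shift below 0 by a similar amount.

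The 3 exposure times share the untreated libraries, so their calls are not independent of each other. Of the sites called higher, 17 were higher at both 24 h and 72 h (65.4% of the 24 h calls and 63.0% of the 72 h calls), and 5 were higher at all 3 times. These 5 were the H4C1, H2AC4, H4C12, H2AC15 and H2BC17 sites. All 7 sites higher at 48 h were also higher at 24 h. A further 7 were higher at 24 h only and 10 at 72 h only, and 6 of the 46 were called at no time. At 24 of the 46 sites the log2 fold change was above 0 at all 3 times. These overlaps were not counted over all tested sites, and whether they are particular to histone sites was not tested.

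Among the linker histone genes, H1-2 and H1-4 had sites. The H1-2 gene carried a site over its own body at chr6:26056172-26056468, with 10.4 and 9.56 CPM in untreated cells, 27.2 and 32.3 CPM at 24 h, 13.9 and 13.6 CPM at 48 h, and 21.6 and 27.8 CPM at 72 h. It was low in untreated cells and at 48 h and high at 24 and 72 h, with no overlap between these. Its log2 fold change was 1.56 at 24 h (1.11 to 2.03, adjusted p = 1.52e-11), the largest of any tested histone site, and 1.29 at 72 h (0.75 to 1.84, adjusted p = 1.85e-05). At 48 h it was 0.45 (-0.17 to 1.06, adjusted p = 0.253). The 24 h value stayed above 0 on the background-floor scale, at 0.63, whereas the 72 h value became -0.21. The authors' lists had a peak there at 24 h only.

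The midpoint of another H1-2 site lay 433 bases past the 3′ end of the gene, at chr6:26054942-26055672. Per kb it was the stronger of the pair, with 118 against 33.7 CPM per kb in untreated cells. It held 86.9 and 85.4 CPM in untreated cells, 77.5 and 79.7 CPM at 24 h, 71.1 and 69.5 CPM at 48 h, and 99.5 and 94.4 CPM at 72 h. Its changes were small: the log2 fold change was -0.13 (-0.34 to 0.07, adjusted p = 0.27) at 24 h and 0.17 (-0.06 to 0.40, adjusted p = 0.256) at 72 h. At 48 h it was called lower, at -0.29 (-0.54 to -0.05, adjusted p = 0.0443), a call that was lost when any of the 4 libraries of that comparison was left out. The H1-4 gene site, chr6:26156362-26156575, had pooled levels of 13.6 CPM in untreated cells and 22.3, 17.6 and 30.9 CPM at 24, 48 and 72 h. It was higher at 24 h (log2 fold change 0.72, 0.27 to 1.17, adjusted p = 0.003) and at 72 h (1.18, 0.71 to 1.66, adjusted p = 7.62e-06).

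H2A and H2B genes, which supply the dimers at the faces of the nucleosome, held the sites with the most counts. The site over the shared promoter of H2BC11 and H2AC11, chr6:27132298-27133281, had the highest mean CPM over the 4 conditions, not corrected for its 984 bases, and 93.9, 138, 101 and 162 CPM per kb in time order. Its libraries held 91.5 and 93.3 CPM in untreated cells, 143 and 128 CPM at 24 h, 102 and 95.9 CPM at 48 h, and 162 and 157 CPM at 72 h. The 24 h and 72 h libraries all lay above the untreated and 48 h ones. The log2 fold change was 0.55 at 24 h (0.38 to 0.73, adjusted p = 2.3e-09), 0.10 at 48 h (-0.12 to 0.31, adjusted p = 0.516) and 0.79 at 72 h (0.60 to 0.98, adjusted p = 8.24e-14).

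The neighbouring H2AC12 site, chr6:27146628-27147566, followed the same order, with 68.9 and 70.9 CPM in untreated cells, 96.0 and 103 CPM at 24 h, 67.2 and 77.8 CPM at 48 h, and 129.8 and 143 CPM at 72 h. Its log2 fold change was 0.51 at 24 h (0.31 to 0.71, adjusted p = 2.92e-06) and 0.96 at 72 h (0.75 to 1.17, adjusted p = 1.88e-16), and 72 h exceeded 24 h by 0.45 (0.23 to 0.67, adjusted p = 0.000426). The H2AC6 site, chr6:26123649-26124586, over the starts of H2AC6 and H2BC4, had 64.1, 83.1, 66.1 and 112 pooled CPM in time order. It rose at 72 h by 0.80 (0.57 to 1.03, adjusted p = 4.01e-10). At 24 h the value was 0.37 (0.16 to 0.59, adjusted p = 0.00169), a call lost without library 1 of 24 h (0.30), and the call at 72 h against 24 h (0.43, adjusted p = 0.00275) was lost without library 2 of 72 h (0.30).

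H2BC5 stood apart from these. Its site, chr6:26157751-26158495, covers the gene start and the E-box shown above. It held 123 and 111 CPM in untreated cells, 82.6 and 80.3 CPM at 24 h, 111 and 82.3 CPM at 48 h, and 158 and 159 CPM at 72 h. The 24 h libraries lay below and the 72 h libraries above both untreated ones, while one 48 h library matched the lower untreated one and the other lay near the 24 h ones. It fell at 24 h by 0.53 on the log2 scale (-0.72 to -0.33, adjusted p = 2.09e-07) and rose at 72 h by 0.44 (0.25 to 0.62, adjusted p = 3.63e-05), and the step between 72 h and 24 h was 0.96 (0.74 to 1.19, adjusted p = 9e-16). That step stayed above 0 on the background-floor scale, at 0.39. The 48 h value of -0.28 (adjusted p = 0.023) lost its call without library 2 of 48 h, at -0.06, or without library 1 of untreated cells, at -0.20. The site was the only one of the 46 that was called lower at 24 h and higher at 72 h.

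The cluster at chr6:27807479-27893891 had the largest changes at 72 h. Of its 9 tested sites 7 rose and none fell, against 18.9% higher and 17.0% lower of all tested sites. Its median log2 fold change was 1.03, against 0.44 over the 13 tested sites of the chromosome 1 cluster. The median was 0.44 over the 20 tested sites of the largest cluster and 0.73 over the 4 of the cluster that holds H2BC11. The H2AC14 site, chr6:27814427-27814973, changed most: it held 35.9 and 38.9 CPM in untreated cells, 46.7 and 45.3 CPM at 24 h, 43.3 and 49.8 CPM at 48 h, and 98.7 and 99.0 CPM at 72 h. Its 72 h libraries were far above all others. The log2 fold change was 1.40 at 72 h (1.14 to 1.67, adjusted p = 1.33e-21) and 0.30 at 24 h (0.01 to 0.59, adjusted p = 0.0641), and 72 h exceeded 24 h by 1.10 (0.81 to 1.40, adjusted p = 1.99e-12). On the background-floor scale the 72 h value against untreated cells was -0.10.

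Other H2A and H2B sites of that cluster differed in their timing. The H2AC13 site, chr6:27807861-27808564, had 62.6, 72.8, 70.6 and 125 pooled CPM in untreated cells and at 24, 48 and 72 h, and rose at 72 h (0.99, 0.77 to 1.22, adjusted p = 4.76e-16). The H2BC17 site, chr6:27892974-27893710, over the starts of H2BC17 and H2AC17, had 48.4, 84.4, 66.8 and 98.8 pooled CPM. It rose at 24 h (0.80, 0.57 to 1.03, adjusted p = 4.74e-11) and at 72 h (1.03, 0.78 to 1.28, adjusted p = 1.4e-13). The H2AC15 site, chr6:27838042-27838563, was instead level across the exposures, with 21.4 pooled CPM in untreated cells and 38.4, 37.0 and 33.5 CPM at 24, 48 and 72 h. Its log2 fold changes were 0.84, 0.79 and 0.64, all called (adjusted p = 5.26e-06, 0.000362 and 0.00918).

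Elsewhere, the H2AC4 site at chr6:26033215-26033895 had 49.0, 60.7, 66.8 and 72.0 pooled CPM in time order, and the intervals of the 3 exposures overlapped. Its 72 h value against untreated cells was 0.55 (0.27 to 0.83, adjusted p = 0.000646). Its 24 h call (0.31, adjusted p = 0.0279) was lost without library 1 of untreated cells or either library of 24 h (0.21 to 0.32), and its 48 h call (0.45, adjusted p = 0.00563) without library 1 of untreated cells (0.38) or library 1 of 48 h (0.42). The H2BC21 site, chr1:149886391-149887125, at the H2BC21 and H2AC20 starts, had the highest mean CPM over the 4 conditions on chromosome 1, although the H4C14 and H4C15 start sites were higher at 48 and 72 h. It held 61.4 and 73.2 CPM in untreated cells, 60.5 and 62.5 CPM at 24 h, 45.6 and 43.8 CPM at 48 h, and 81.3 and 63.9 CPM at 72 h. It fell at 48 h by 0.58 (-0.89 to -0.29, adjusted p = 0.000392), and the 24 h and 72 h values were -0.12 (adjusted p = 0.383) and 0.12 (adjusted p = 0.502). A site 642 bases beyond the far end of the long RefSeq model of H2BC5, chr6:26171844-26172137, had 16.2, 29.7, 25.2 and 21.9 pooled CPM. It was higher at 24 h (0.87, adjusted p = 3.61e-05) and at 48 h (0.64, adjusted p = 0.0209), and the 48 h call was lost without library 1 of untreated cells or either library of 48 h (0.48 to 0.67).

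H3 genes, whose protein carries most of the well-known regulatory tail modifications, gave both rises and falls. The H3C10 site, chr6:27809910-27810430, had 27.5 and 36.6 CPM in untreated cells, 25.1 and 40.9 CPM at 24 h, 30.1 and 35.5 CPM at 48 h, and 65.8 and 81.4 CPM at 72 h. The first 3 conditions overlapped and 72 h lay above them, with a log2 fold change of 1.21 against untreated cells (0.90 to 1.51, adjusted p = 8.23e-13) and of 1.16 against 24 h (0.81 to 1.51, adjusted p = 5.42e-10). At 24 h the value was 0.05 (-0.28 to 0.38, adjusted p = 0.821).

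The H3C1 gene held a pair of tested narrow sites. That over its start, chr6:26020355-26020558, had 6.17, 15.5, 4.58 and 11.2 pooled CPM and rose at 24 h (1.32, 0.73 to 1.95, adjusted p = 2.37e-05). That further into the gene, chr6:26020746-26020905, had 5.09, 9.99, 6.87 and 13.4 pooled CPM and rose at 24 h (0.96, 0.26 to 1.69, adjusted p = 0.0105) and at 72 h (1.39, 0.64 to 2.16, adjusted p = 0.00104). The wide intervals go with the low counts.

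The 1 site that fell at 72 h had its midpoint 1318 bases past the 3′ end of H3C3, at chr6:26047112-26047261. It had 11.3 and 13.5 CPM in untreated cells, 5.64 and 5.93 CPM at 24 h, 6.18 and 9.06 CPM at 48 h, and 1.73 and 10.2 CPM at 72 h. All treated libraries were below both untreated ones, and the 72 h libraries were far apart. The log2 fold change was -1.08 at 24 h (-1.85 to -0.40, adjusted p = 0.00217) and -1.08 at 72 h (-2.06 to -0.23, adjusted p = 0.0205), the second of which was -0.27 and not called without library 1 of 72 h, and -0.96 and not called without library 2 of untreated cells. The site over the start of the same gene, chr6:26045249-26045769, had 32.8, 33.6, 36.3 and 57.7 pooled CPM in time order and rose at 72 h (0.81, 0.49 to 1.13).

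Neighbouring sites at H3C14 on chromosome 1 moved in opposite directions between 24 h and 72 h. The site over the start, chr1:149841146-149841491, had 25.3, 43.6, 16.4 and 21.9 pooled CPM, with a log2 fold change of 0.79 at 24 h (0.47 to 1.11, adjusted p = 4.47e-06) and of -0.99 at 72 h against 24 h (-1.48 to -0.53, adjusted p = 8.01e-05). Its 48 h call (-0.62, adjusted p = 0.0293) was lost without library 1 of untreated cells (-0.53) or library 2 of 48 h (-0.31). The site inside the gene, chr1:149840801-149841023, had 9.10, 8.15, 12.2 and 20.6 pooled CPM and was higher at 72 h than at 24 h (1.33, 0.65 to 2.04, adjusted p = 0.000432), a call lost without library 2 of 72 h (1.02). The H3C2 start site, chr6:26031995-26032276, had 14.5, 22.3, 15.3 and 12.1 pooled CPM, and the H2BC4 body site, chr6:26122984-26123219, had 21.7, 27.6, 24.8 and 17.0 pooled CPM. Both were lower at 72 h than at 24 h (-0.88 and -0.70, adjusted p = 0.0134 and 0.0263), and both calls were lost when library 2 of 24 h (-0.85 and -0.52) or library 1 of 72 h (-0.98 and -0.49) was left out. The H3C2 call was also lost without library 2 of 72 h (-0.76).

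H4 genes, which encode the most conserved core histone, also showed separate time courses. The H4C8 site, chr6:26285178-26285734, had the highest level per length among the 46 tested histone sites at 24 and 48 h, with 116, 161, 161 and 143 CPM per kb in untreated cells and at 24, 48 and 72 h. Its libraries held 61.1 and 68.9 CPM in untreated cells, 94.4 and 85.1 CPM at 24 h, 85.0 and 94.4 CPM at 48 h, and 95.2 and 62.9 CPM at 72 h. The 24 h and 48 h libraries all exceeded the untreated ones, and the 72 h libraries did not agree on it. Log2 fold changes were 0.47 at 24 h (adjusted p = 3.5e-05), 0.47 at 48 h (adjusted p = 0.00055) and 0.30 at 72 h (0.04 to 0.55, adjusted p = 0.0612), the last of which turned to -0.039 without library 1 of 72 h and passed without library 2 of 72 h (0.56) or library 2 of untreated cells (0.37).

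The H4C12 site, chr6:27831247-27831636, had 24.5 CPM per kb in untreated cells, against a median of 58.6 over the histone sites. Its libraries held 11 and 7.92 CPM in untreated cells, 23.6 and 20.5 CPM at 24 h, 25.5 and 18.9 CPM at 48 h, and 26.8 and 18.5 CPM at 72 h. Every treated library lay above both untreated ones, and the 3 exposures overlapped. Its log2 fold changes were 1.20, 1.21 and 1.25 (adjusted p = 2.72e-06, 5.52e-05 and 6.59e-05), and 72 h against 24 h gave 0.05 (-0.48 to 0.57). It was the only histone site that rose at least 2-fold at 48 h. A site with its midpoint 440 bases past the 3′ end of H4C2, chr6:26026324-26026589, went the other way at 24 h, with 37.7 and 42.9 CPM in untreated cells and 16.4 and 28.0 CPM at 24 h. It fell by 0.86 on the log2 scale (-1.23 to -0.50, adjusted p = 3.51e-06), with 32.5 and 36.7 pooled CPM at 48 h and 72 h, and 72 h exceeded 24 h by 0.73 (adjusted p = 0.00551).

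Some of these genes are near-identical copies, and how the authors' alignment placed reads between copies is not given in the sources used here. The promoter windows of H4C14 and H4C15 were identical over 300 bases, those of H2AC18 and H2AC19 over 299 and those of H3C14 and H3C15 over 296, while H4C11 and H4C12 differed at 5 of 300 bases. The median identity over the 1953 pairs of windows, each at its best ungapped shift, was 32.3%. The H4C14 start site, chr1:149832321-149833174, had 46.0, 54.4, 45.1 and 93.0 pooled CPM, and the H4C15 start site, chr1:149860641-149861568, had 50.4, 50.7, 48.5 and 87.7 pooled CPM. Both rose at 72 h (1.02, adjusted p = 1.42e-12, and 0.80, adjusted p = 4.87e-08), and the division of signal between them is uncertain. The H2AC18 start site had 30.4, 42.3, 27.9 and 42.9 pooled CPM and the H2AC19 start site 38.1, 52.6, 37.4 and 54.6. The H3C14 and H3C15 start sites were less alike, with 35.8, 51.5, 37.4 and 46.1 pooled CPM at H3C15 and log2 fold changes at 48 h of -0.62 at H3C14 and 0.06 at H3C15, a difference that was not tested. The H4C11 start site had 15.4, 26.3, 18.7 and 34.4 pooled CPM.

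**Figure D4:**
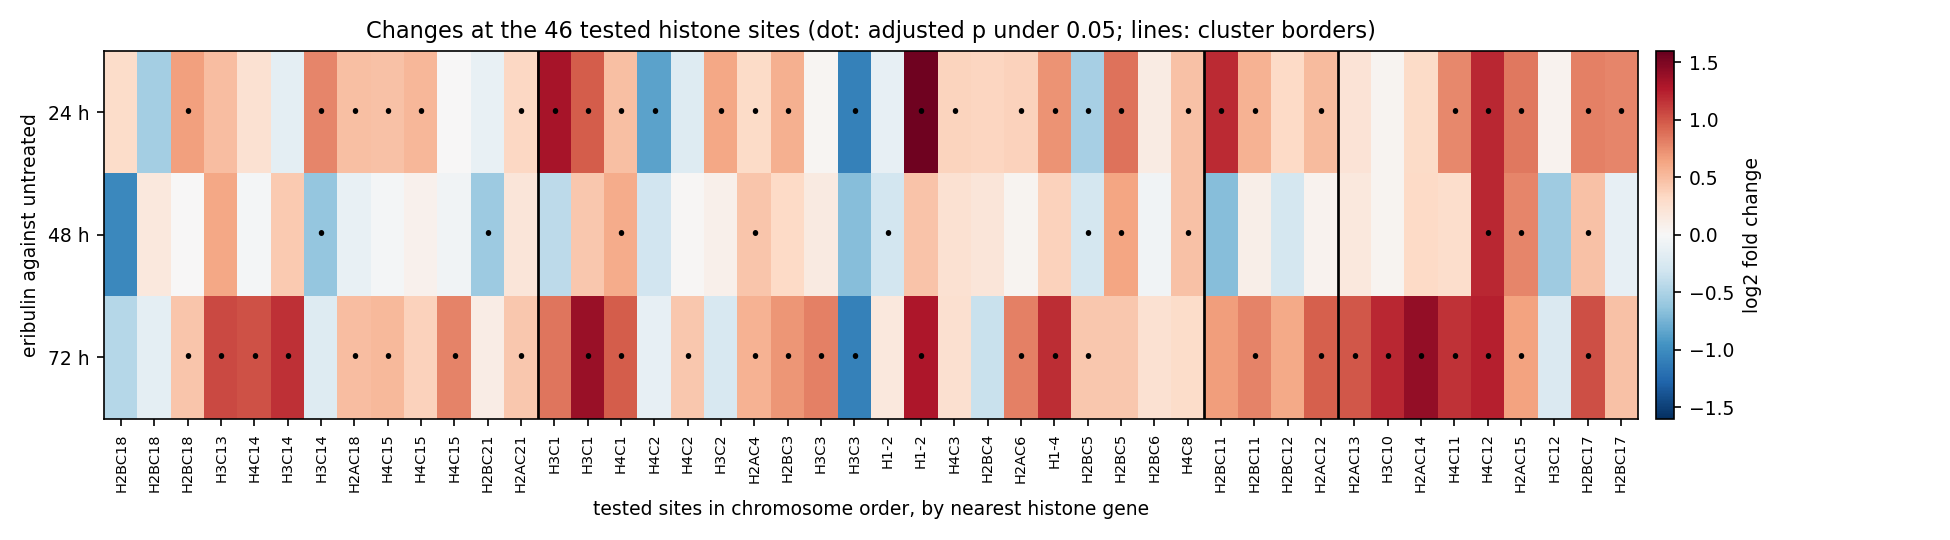
Log2 fold change against untreated cells (TMM scale, colour) at the 46 tested histone sites in chromosome order, labelled by the nearest histone gene, at 24, 48 and 72 h of eribulin; a dot marks an adjusted p under 0.05 and lines mark cluster borders. Red (higher) predominates at 24 and 72 h, with 26 and 27 called higher, and pale colours at 48 h, with 7; on the background-floor scale the medians are -0.51, -1.35 and -0.92.

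By family, sites linked to H1, H2A, H2B, H3 and H4 genes had median log2 fold changes at 72 h of 0.81, 0.58, 0.64, 0.63 and 0.66, and single sites ranged widely within a family, from -1.08 to 1.39 in H3. A site may be linked to genes of several families, and only 4 were linked to H1. At 24 h the medians were 0.29, 0.42, 0.37, 0.48 and 0.47, and at 48 h they were 0.05, 0.06, 0.14, 0.07 and 0.04. Differences between families were not tested.

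The histone sites were wider and had more counts than most, with a median width of 464 bases against 229 over all sites, which makes a call easier at a given fold change. Tested histone sites had a median of 519 counts over the 8 libraries, against 196 for all tested sites. Per kb, the median level was 58.6, 78.4, 60.8 and 89.9 CPM in untreated cells and at 24, 48 and 72 h at histone sites, and 47.2, 50.3, 48.5 and 47.9 CPM over all sites. Sites of the same kind were therefore compared, a choice made after the values were seen. The sites taken were 500 bases or wider and held a gene start listed in the RefSeq promoter table. Histone sites of this kind still had more counts (median 831 over the 8 libraries) than all tested sites of this kind (547). Of the 21 such histone sites tested, 18 rose at 72 h (85.7%) and none fell, against 20.1% higher and 14.7% lower of all 3162 such sites. All 21 had a log2 fold change above 0, against 55.0% of all such sites, and the medians were 0.70 and 0.05. At 24 h 13 of the 21 rose and 1 fell, against 30.7% and 27.1%, with medians of 0.37 and 0.04. At 48 h 4 rose and 2 fell, against 15.3% and 15.3%, with medians of 0.06 and 0.02. The difference between the 2 sets was not tested. The H4C1 and H4C3 sites, 507 and 509 bases wide, were left out because the promoter table lacks these genes. Their log2 fold changes at 72 h were 0.97 (called higher) and 0.25 (not called).

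The narrower sites were more mixed. At 72 h, 8 of the 22 tested histone sites under 500 bases rose and 1 fell, and 14 were above 0. Of the 18 tested sites that held no histone gene start listed in the promoter table, 6 rose at 72 h and 1 fell, with a median of 0.45. These include the H4C1 and H4C3 sites, whose genes are not in that table, so that their starts could not be counted. Over all tested sites, 18.9% were higher and 17.0% lower at 72 h. No such share was counted for all narrow sites or for all sites without a start.

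Peaks in the authors' deposited lists, 1 list per condition, covered 46 of the 51 histone sites in untreated cells (90.2%), 41 at 24 h (80.4%), 28 at 48 h (54.9%) and 32 at 72 h (62.7%). Over all consensus sites the shares were 86.6, 61.3, 39.4 and 32.1%. Library totals fell over the same conditions, from 3561455 and 3146228 counts in untreated cells to 1207987 and 1130706 at 72 h. How far the fall in peaks goes with these totals was not tested. A peak was present in all 4 conditions at 26 histone sites (51.0%), against 24.1% of all sites. Sites lost from the lists did not always lose signal on the TMM scale. The H2AC18 start site, chr1:149842473-149843008, had no peak at 48 or 72 h, yet held 30.4, 42.3, 27.9 and 42.9 pooled CPM in time order. Its raw pooled counts, not scaled for the smaller libraries, did fall, with 197, 161, 73 and 96. A peak in untreated cells only was found at 8 sites, of which the H3C3 site 1318 bases from the gene was called lower at 72 h and the site inside H3C14 higher (1.17, adjusted p = 0.000377). In the authors' deposited peak lists the H4C8 site had the highest fold enrichment of any histone site in untreated cells, at 24 h and at 48 h, with 15.9, 13.7 and 12.7, and the H4C14 start site had the highest at 72 h, with 9.70.

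Other genes in the span of the histone genes and genes that make or use histones were read by the same 2 kb rule. The first list took non-histone protein-coding genes between the outermost clustered histone genes of chromosome 6 or within the main chromosome 1 cluster. Such genes need not lie inside a cluster, and the sites at HMGN4, ZNF184 and PRSS16 named below lie outside all 6 clusters. The list had 24 tested sites, and 2 of the linked sites are also histone sites. Of these 24, 12 rose and 2 fell at 24 h (median 0.58), 7 rose and none fell at 48 h (0.06), and 8 rose and none fell at 72 h (0.26), which is 50%, 29.2% and 33.3% higher against 28.0%, 16.8% and 18.9% of all tested sites. At 72 h against 24 h 4 rose and 5 fell, with a median of -0.20, where the histone median was 0.23. The smallest p was at HMGN4, a nucleosome-binding protein gene, at 24 h (84.4 against 48.6 CPM, log2 fold change 0.80, adjusted p = 5.97e-11). At 48 h and 72 h it was at the zinc finger gene ZNF184 (165 and 203 CPM, against 104 CPM in untreated cells; 0.66 and 0.96, adjusted p = 1.18e-11 and 1.88e-24). Between 72 h and 24 h it was at the protease gene PRSS16 (155 against 65.2 CPM, 1.25, adjusted p = 2.25e-23).

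The replication-independent histone genes, which are expressed outside S phase from single loci with poly(A) tails, had 17 tested sites. For 24, 48 and 72 h, 6 rose and 5 fell, 4 rose and 3 fell, and 5 rose and 1 fell, and for 72 h against 24 h 6 rose and 2 fell, with medians of 0.26, 0.18, 0.22 and 0.43. Higher were 35.3%, 23.5%, 29.4% and 35.3% of the 17, against 28.0%, 16.8%, 18.9% and 19.4% of all. The H2AX site, at the gene of the variant that marks DNA breaks, fell at 24 h (79.4 against 138 CPM, -0.80, adjusted p = 1.59e-16). A site at H1-10, a linker histone variant gene, rose at 48 h and 72 h (30.9 and 38.5 CPM, against 8.64 CPM in untreated cells; 1.83 and 2.15, adjusted p = 1.08e-11 and 1.14e-15).

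Factors that transcribe histone genes or process their mRNA had 62 tested sites, and at 24 h their shares, 30.6% higher and 25.8% lower, were near those of all tested sites (28.0% and 26.8%). Of the 62, 19 rose and 16 fell, 7 rose and 12 fell, and 5 rose and 13 fell for 24, 48 and 72 h, and 6 rose and 16 fell for 72 h against 24 h, with medians of 0.01, -0.09, -0.18 and -0.27. At 72 h these were 8.06% higher and 21.0% lower, against 18.9% and 17.0% of all. The NFYA site, at the gene of a subunit of the CCAAT-binding factor NF-Y, was higher at 24 h (325 against 171 CPM, 0.93, adjusted p = 2.08e-42) and lower at 72 h than at 24 h (167 against 325 CPM, -0.96, adjusted p = 4.94e-28). A site at NFYC, another NF-Y subunit gene, fell at 48 h (19.5 against 59.8 CPM, -1.62, adjusted p = 4.52e-16). The ERI1 site, at the gene of the exonuclease that trims histone mRNA ends, fell at 72 h (30.0 against 61.2 CPM, -1.03, adjusted p = 7.63e-08).

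Histone chaperones, which carry histones to and from DNA, had 48 tested sites, and at 24 h 25% were higher and 33.3% lower, against 28.0% and 26.8% of all tested sites. Of the 48, 12 rose and 16 fell, 2 rose and 11 fell, and 1 rose and 7 fell for 24, 48 and 72 h, and 8 rose and 11 fell for 72 h against 24 h, with medians of -0.12, -0.21, -0.15 and -0.09. At 72 h these were 2.08% higher and 14.6% lower. The site at DAXX, the chaperone gene for H3.3, fell at 24 h (56.5 against 111 CPM, -0.98, adjusted p = 1.31e-18) and at 48 h (72.6 against 111 CPM, -0.62, adjusted p = 6.9e-07). The site at ASF1B, an H3 and H4 chaperone gene, fell at 72 h (127 against 198 CPM, -0.65, adjusted p = 2.59e-11). The site at ANP32E, a chaperone gene for H2A.Z, was higher at 72 h than at 24 h (95.3 against 57.8 CPM, 0.72, adjusted p = 4.13e-06). These lists were read beside the clustered genes, and no difference between lists was tested.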

How the data were processed

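ZEB1 CUT&RUN was analysed in 8 libraries, 2 for each of 4 conditions, grouped by the labels. Per the submitters' processing notes, which give no role or order, the authors used the hg38 build and Bowtie2 2.2.6 and MACS2 2.1.1, next to featureCounts, bedtools 2.30.0, deepTools, Picard, cutadapt 2.4 and bcl2fastq 2.20.0.422. The deposited count table holds raw counts per consensus site without normalization, and whether a count is a read or a fragment is not given in the sources used here. The deposited peak lists, 1 per condition, give a fold enrichment (a ratio) and a -log10 p-value for each peak. Every column of per-sample values was used.

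The counts were fitted with edgeR 4.0.16 (R 4.3.3): after filterByExpr and TMM, a robust quasi-likelihood model with a term for condition was fitted to the 8 libraries together, and its 2-sided F tests were adjusted by Benjamini-Hochberg over all 46436 tested sites, with calls at 0.05. The common dispersion of 9.77e-05 (coefficient of variation 0.00988) is that of libraries of 1 condition, which differ by counting noise alone. A fold change therefore has no check between cultures. Intervals (95%) are exact binomial intervals of pooled counts and cover counting error only, and library totals of 1130706 to 3561455 limit the precision at narrow sites. The fit was tested on simulated counts.

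Genes and promoter sequences came from RefSeq GRCh38.p14, which is the assembly of the files up to patches. Peaks were matched to sites with bedtools 2.31.1, any shared base counting. The background floor of the peak caller was recovered from the fold and p-value columns, as the most frequent background value among the peaks. Of the peaks for which a value was found, 4.99% in untreated cells lay at the floor. At 24, 48 and 72 h these were 4.44, 3.64 and 2.00%. Alternatives were DESeq2 1.42.0 (size factors, Wald test), scaling by total counts, by the background floor and on the sites with the lowest counts, no filter, windows of 1 and 5 kb, a replicate block, an assumed coefficient of variation of 0.2, a 2-fold minimum, and each library left out in turn, with the lone library assumed to vary like the others.

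Sites are named by rule: the 10 with the highest mean CPM, the 3 lowest and 3 highest called sites of each comparison, the strongest of each family, and from each other list the site with the smallest p. The H1-4 gene site, the H4C5 site and the H4C1, H4C11, H4C14, H4C15, H2AC18, H2AC19, H3C15 and H3C3 start sites were named after their values were seen. The members, the lists and the tests were chosen with earlier results of these data known.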

Additional observations from a re-analysis of the deposited data

Results flagged for a closer look

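At 16 histone sites the change at 72 h differed from the change at 24 h, by the test of the 72 h against the 24 h libraries (edgeR, adjusted p under 0.05), in which the untreated libraries cancel. Of the 46 tested histone sites, 28.3% were called higher and 6.52% lower, against 19.4% and 16.4% of all tested sites. The log2 difference between 72 h and 24 h was above 0 at 13 of the 16. In the chromosome 6 cluster that holds H2AC13 it was 1.10 at H2AC14, 1.16 at H3C10 and 0.78 at H2AC13. At the remaining H2A and H2B sites it was 0.96 at the H2BC5 start, 0.45 at H2AC12 and 0.43 at H2AC6. Among H4 genes it was 0.77 at H4C14 and 0.79 at H4C15, which are near-identical copies, 0.49 at H4C1, and 0.73 and 0.64 at the sites past the 3′ end and over the start of H4C2. Among H3 genes it was 0.78 at the H3C3 start and 1.33 at the site inside H3C14. It was below 0 at 3 sites, with -0.99 at the H3C14 start, -0.88 at H3C2 and -0.70 in the body of H2BC4. On the background-floor scale the values at H2AC6 and H2AC12 were -0.14 and -0.12.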

How the results depend on the processing

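Scaling to the background floor of the peak caller turned the direction of the 4 summed ratios and of 37 values at named sites, of which 24 had been called. The summed log2 ratios became -0.61 (24 h), -1.33 (48 h) and -0.86 (72 h) against untreated cells and -0.25 for 72 h against 24 h. At 24 h, H2AC4, H2AC6, H4C8, H2BC11, H2AC12 and H2BC17 became -0.62, -0.56, -0.46, -0.38, -0.42 and -0.13. At 48 h, H2AC4, the far H2BC5 site, H4C8, H4C12, H2AC15 and H2BC17 became -0.98, -0.78, -0.95, -0.21, -0.63 and -0.96. At 72 h, the inner H3C1 site, H2AC4, the H1-2 gene site, H2AC6, the H2BC5 start, H2BC11, H2AC12, H2AC13, H2AC14 and H2BC17 became -0.11, -0.95, -0.21, -0.70, -1.07, -0.71, -0.54, -0.51, -0.10 and -0.48, and at 72 h against 24 h H2AC6 and H2AC12 became -0.14 and -0.12. Values that had not been called turned to -0.71 at H2AC13 (24 h), to -1.38, -1.32, -1.37 and -1.25 at H2AC6, H2BC11, H2AC12 and H2AC13 (48 h), to -1.38, -1.33 and -1.21 at H2BC21, the H1-2 site past the 3′ end and H4C8 (72 h), and to -0.33, -0.33, -0.27, -0.34 and -0.34 at H2BC21, H2AC4, that H1-2 site, H2BC11 and H2BC17 (72 h against 24 h). The cause was not tested. Histone sites higher and lower on that scale numbered 1 and 31 (24 h; 6.07% and 65.0% of all sites), 0 and 45 (48 h; 3.7% and 83.5%), 0 and 36 (72 h; 2.39% and 82.9%) and 4 and 21 (72 h against 24 h; 7.63% and 43.4%).

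Total-count scaling gave summed ratios of 0.41 at 24 h and 0.21 at 72 h against 24 h, and scaling on the sites with the lowest counts gave 0.18 at 24 h, 0.57 at 72 h and 0.39 at 72 h against 24 h, with 6 sites lower at 24 h. DESeq2's Wald test called 13 (24 h), 2 (48 h) and 17 (72 h) sites higher, against 13.7, 8.63 and 9.76% of all sites, and 1 lower at 48 h, 0 at 72 h and 1 at 72 h against 24 h. An assumed coefficient of variation of 0.2, which widens the error of every site, left 1, 0, 1 and 0 higher and 0 lower in each comparison. At least 2-fold were 4, 1, 11 and 3 higher and 1, 0, 1 and 0 lower. A window of 1 kb left 0 lower at 72 h, since it leaves out the site past H3C3. Without each library in turn, 18 to 26, 4 to 9, 23 to 29 and 10 to 16 sites were higher and 3 to 4, 1 to 4, 0 to 1 and 1 to 3 lower (24 h, 48 h, 72 h, 72 h against 24 h), and the summed ratios ran from 0.28 to 0.34, 0.08 to 0.13, 0.62 to 0.65 and 0.30 to 0.35.

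Libraries with the same replicate number share only that number: the correlation of their deviations was -0.0046 to 0.0139. The replicate block left 26, 7, 27 and 13 sites higher and 3, 4, 1 and 3 lower, and changed no call at the named sites. Apart from the background floor, 541 of the values at named sites under the other alternatives kept their direction and call, 89 kept the direction and lost the call, 14 gained one, and 5 uncalled ones turned their direction when a library was left out. Leaving out libraries gave -0.036 to 0.17 at H2AC12 (48 h), -0.065 to 0.28 at H2BC21 (72 h), -0.039 to 0.56 at H4C8 (72 h) and -0.49 to 0.10 at H4C8 (72 h against 24 h).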
